A study of Oryza sativa with 9 samples.

Results

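RISBZ1, RPBF, NAC20 and NAC26 encode transcription factors that switch on storage genes in the rice grain. The 4 genes were taken by locus identifier, and all were found among the 31263 loci of the expression table. RNA was sequenced from dehulled developing rice seeds, in 9 libraries with 3 biological repeats of each of 3 genotypes. The complemented line (pHL8042/EM1084) is the mutant EM1084 carrying in addition a wild type copy of the gene for OsTudor-SN, an RNA-binding protein with nuclease-like and Tudor domains. EM1084 carries the E503K change in OsTudor-SN, and this allele is present in both lines. The third genotype was the wild type. Plants had 12 h of light per day at 27 °C, and seeds were 10 to 14 days past flowering. A single transgenic line was profiled. The sources used here do not give the promoter that drives the transgene or the parent variety of the wild type.

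Grain storage proteins and starch are made in the starchy endosperm, and their genes are read from promoters that share a few short elements. RISBZ1 is a basic leucine zipper factor that binds the GCN4 element, and RPBF is a Dof zinc finger factor that binds the prolamin box. The pair is known to act jointly on glutelin and prolamin genes and on part of starch synthesis. NAC20 and NAC26 are related factors of the NAC family that act in the endosperm with overlapping function on storage protein and starch genes. The table holds identifiers without names, so the names come from what is generally known of these rice loci.

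RISBZ1 (LOC_Os07g08420) lies on the minus strand of chromosome 7, from 4322231 to 4326708. RPBF (LOC_Os02g15350) lies on the minus strand of chromosome 2, from 8590287 to 8593925. NAC20 (LOC_Os01g01470) lies on the plus strand of chromosome 1, from 241641 to 243468, and NAC26 (LOC_Os01g29840) on its minus strand, from 16720504 to 16722617. These are the coordinates printed in the table, and the sources used here do not name their genome build. No other listed locus overlapped any of the 4. The nearest one on either side was between 1079 and 21104 bases away.

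Levels are in RPKM, reads per kilobase of transcript scaled to the mapped reads of the library, computed by the authors. The values step in whole reads, so the reads behind each one could be derived. RISBZ1 rested on 680 to 4192 reads per library, RPBF on 1193 to 4823, NAC20 on 1428 to 21219 and NAC26 on 2920 to 20944. The lowest read number of each gene was in WT 3. In every library each of the 4 stood above at least 96.7% of the 15450 genes tested (those with 1 RPKM or more in 3 or more libraries).

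NAC20 had 639, 738 and 724 RPKM in the complemented line. It had 215, 223 and 286 RPKM in EM1084 and 171, 172 and 159 RPKM in wild type. The 3 genotypes did not overlap, and the complemented libraries stood far above both other groups. In RNA of whole seeds, fewer cells of a type and less RNA per cell cannot be told apart. NAC26 had 524, 605 and 610.3 RPKM in the complemented line, 386, 381 and 459.6 RPKM in EM1084 and 313, 323 and 269 RPKM in wild type. Its 3 genotypes did not overlap either, in the same order as for NAC20 but with narrower gaps. Within genotypes EM1084 3 was the highest EM1084 library for both NAC genes, and complemented 1 and WT 3 were the lowest of their groups for both.

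RISBZ1 had 119, 126 and 138 RPKM in the complemented line, 135, 119 and 129 RPKM in EM1084 and 70.7, 71.0 and 66.1 RPKM in wild type. The complemented and EM1084 libraries overlapped, and all 6 lay above wild type. RPBF had 142, 149 and 148 RPKM in the complemented line, 109, 126 and 131 RPKM in EM1084 and 140.2, 133 and 117 RPKM in wild type. On the values as deposited it varied least of the 4 between genotypes. The complemented libraries lay above the other 6, whereas EM1084 and wild type overlapped.

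**Figure D1:**
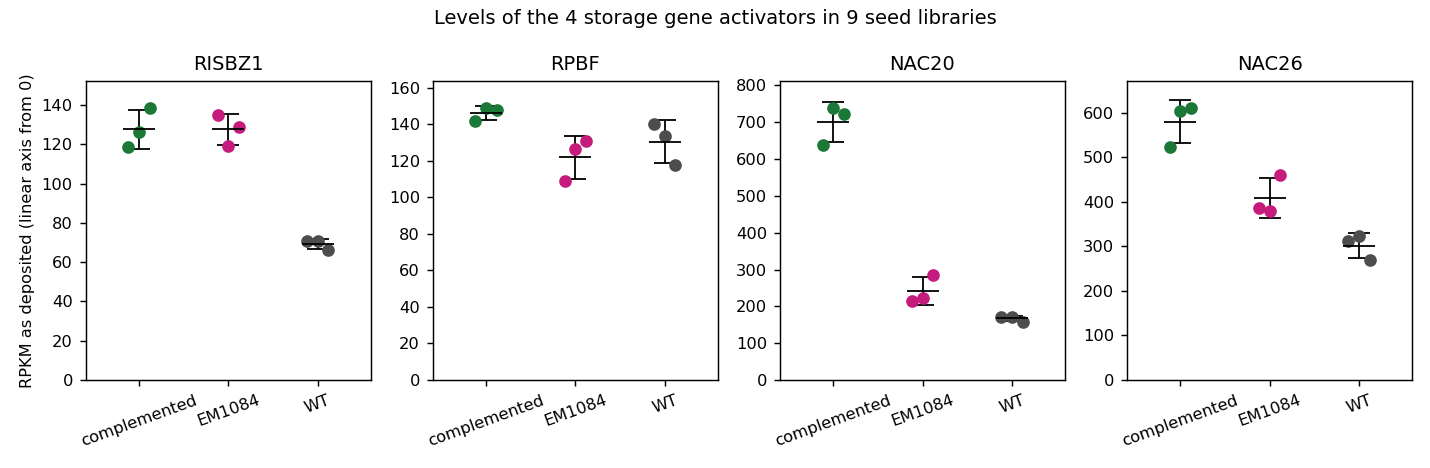
RPKM as deposited (vertical axis, linear from 0, own range per panel) of RISBZ1, RPBF, NAC20 and NAC26 in the complemented line, EM1084 and wild type (horizontal axis); points are libraries, black bars the mean and SD of 3. NAC20 in the complemented line (639 to 738 RPKM) stands apart from EM1084 (215 to 286) and wild type (159 to 172), while RPBF spans 109 to 149 RPKM over all 9 libraries.

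The order of the 4 genes, compared per length in RPKM, differed between genotypes. In all 3 complemented libraries it was NAC20, NAC26, RPBF and RISBZ1 from high to low. In all 3 EM1084 libraries NAC26 was first and NAC20 second, and RISBZ1 (127.7 ± 7.86 RPKM) and RPBF (121.9 ± 11.7 RPKM; SD, n = 3 each) did not differ beyond their spread. In all 3 wild type libraries it was NAC26, NAC20, RPBF and RISBZ1. The 4 together summed to 1554 ± 113 RPKM in the complemented line, 899.9 ± 91.5 RPKM in EM1084 and 669 ± 49.7 RPKM in wild type (SD, n = 3).

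Ratios between genes of 1 library do not depend on a factor that scales the whole library. NAC20 over NAC26 was 1.22, 1.22 and 1.19 in the complemented line, 0.557, 0.587 and 0.623 in EM1084 and 0.545, 0.532 and 0.589 in wild type. NAC20 exceeded NAC26 only in the complemented libraries, and the EM1084 and wild type ratios overlapped. The log2 ratio was 1.04 higher in the complemented line than in EM1084 (SE 0.048) and 1.12 higher than in wild type (SE 0.046), and it was 0.084 higher in EM1084 than in wild type (SE 0.064). In two-sided exact permutation tests both differences of the complemented line had p = 0.1, below which 3 libraries against 3 cannot go, and that of EM1084 against wild type had p = 0.3.

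RISBZ1 over RPBF averaged 0.874 ± 0.0555 in the complemented line, 1.06 ± 0.161 in EM1084 and 0.533 ± 0.0296 in wild type (SD, n = 3). Both lines carrying the mutant allele thus lay above wild type in this ratio, without overlap, by 0.71 (SE 0.070) for the complemented line and 0.98 (SE 0.13) for EM1084 on the log2 scale (exact permutation p = 0.1 each). NAC26 over RISBZ1 averaged 4.54 ± 0.218 in the complemented line and 4.35 ± 0.252 in wild type, which overlapped (exact permutation p = 0.6), while EM1084 had 3.21 ± 0.354, below both. NAC20 over RISBZ1 averaged 5.49 ± 0.321 in the complemented line, 1.90 ± 0.315 in EM1084 and 2.41 ± 0.0131 in wild type. Each of the 6 pairs of members differed among the 3 genotypes in a joint exact permutation test with 280 assignments of libraries to genotypes (Benjamini-Hochberg adjusted p over the 6 pairs, 0.00536 to 0.0214). NAC26 over RISBZ1 was the pair with the highest of these.

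**Figure D2:**
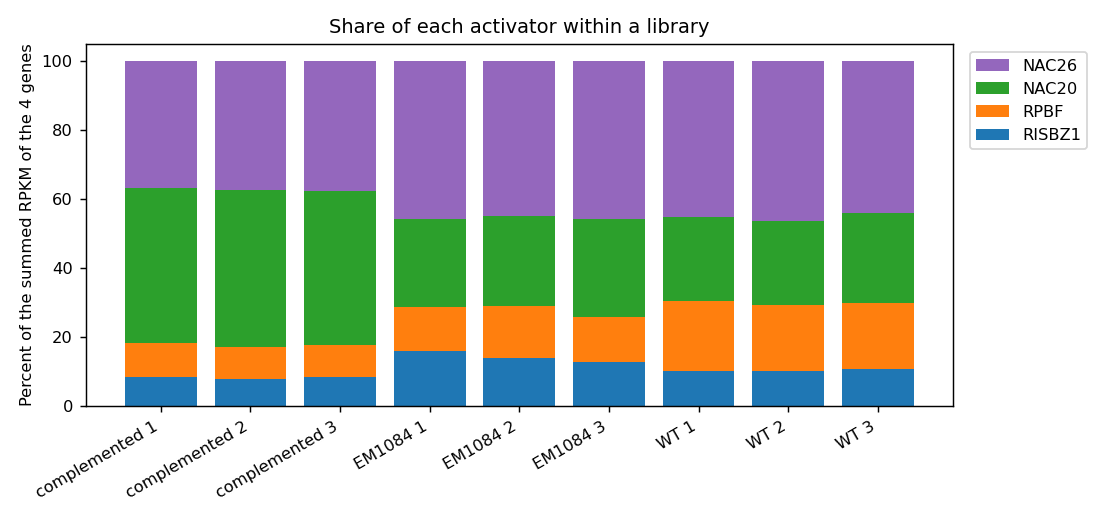
Share of RISBZ1, RPBF, NAC20 and NAC26 in their summed RPKM (vertical axis, percent, stacked from 0) for each of the 9 libraries (horizontal axis). NAC20 makes up 44.7% to 45.6% in the complemented line, against 25.5% to 28.5% in EM1084 and 24.6% to 25.9% in wild type.

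As shares of the 4-gene sum, NAC20 took 45.1% ± 0.5 in the complemented line, 26.7% ± 1.6 in EM1084 and 25.0% ± 0.8 in wild type (SD, n = 3). NAC26 took 37.3% ± 0.4, 45.4% ± 0.5 and 45.1% ± 1.1 in the complemented line, EM1084 and wild type. RPBF took 9.43% ± 0.48 in the complemented line, 13.6% ± 1.1 in EM1084 and 19.5% ± 0.6 in wild type, so its share was smallest in the complemented line although its RPKM was highest there. RISBZ1 took 8.23% ± 0.38, 14.3% ± 1.6 and 10.4% ± 0.4 in the same 3 genotypes.

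Differences in level were tested with limma on log2(RPKM + 1) across all 15450 genes, and adjusted p values are Benjamini-Hochberg values over those genes. Mapped reads numbered 17022681 to 18449248 in the complemented line, 12805472 to 15630870 in EM1084 and 5778627 to 10551055 in wild type. Storage protein genes took 45.4% to 50.2% of the reads in listed loci in the complemented line, 33.8% to 34.5% in EM1084 and 56.6% to 61.2% in wild type. The median log2 fold change of all tested genes was -0.34 for the complemented line against EM1084, 1.06 for EM1084 against wild type and 0.73 comparing complemented line and wild type. In the same order of comparisons it was -0.011, 0.099 and 0.10 after median-of-ratios scaling, -0.092, 0.60 and 0.51 after scaling on the reads outside the storage protein lists, and -0.0042, 0.0032 and 0.0013 after quantile normalization. OsTudor-SN itself (LOC_Os02g32350) had 348 to 389 RPKM in the complemented line, 206 to 221 RPKM in EM1084 and 88.4 to 97.6 RPKM in wild type. A substitution such as E503K need not change RNA level, so these values do not check the EM1084 label.

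The complemented line against EM1084 compares the activators with and without the added OsTudor-SN gene in the mutant. With a single transgenic line, the added gene and other differences of that line cannot be told apart. On the values as deposited 3 of the 4 rose, where 55.5% of all tested genes were called, 10.2% higher and 45.3% lower. NAC20 rose 2.90-fold by its means, with a log2 fold change of 1.54 (SE 0.11, limma adjusted p = 9.7e-08). NAC26 rose 1.42-fold (log2 fold change 0.51, SE 0.10, adjusted p = 0.0009). RPBF had a log2 fold change of 0.26 (SE 0.093, adjusted p = 0.029), a call that was lost without EM1084 1 (0.18, adjusted p = 0.145), without complemented 2 (0.25, adjusted p = 0.081), without complemented 3 (0.26, adjusted p = 0.064) and without the filter on low genes (adjusted p = 0.056). RISBZ1 did not pass (log2 fold change -0.00035, 95% interval -0.19 to 0.19, adjusted p = 0.998). Under the 3 other scalings all 4 were called higher, with log2 fold changes of 0.31 to 0.43 for RISBZ1. Median of ratios called 37% of all genes (18.1% higher, 18.9% lower), scaling outside the storage lists 39.4% (15.6% higher, 23.7% lower) and quantile normalization 41% (20.6% higher, 20.5% lower). Relative to the median of all genes, the shifts were 1.88 for NAC20, 0.85 for NAC26, 0.60 for RPBF and 0.34 for RISBZ1. NAC20 thus lay above 98.8% of the genes tested, and RISBZ1 above 74.9%.

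EM1084 against wild type addresses the activators in the Tudor-SN mutant. On the values as deposited 3 of the 4 were higher, where 88.1% of all tested genes were called, 82.7% higher and 5.33% lower, so the members' share is near the background. RISBZ1 had the largest fold of the 4 (log2 fold change 0.87, SE 0.086, adjusted p = 6.1e-07). NAC20 (0.52, SE 0.11, adjusted p = 0.00043) and NAC26 (0.43, SE 0.10, adjusted p = 0.0011) followed. RPBF did not pass (log2 fold change -0.096, 95% interval -0.30 to 0.11, adjusted p = 0.34). The directions turned with scaling. Under median of ratios all 4 were called lower, with log2 fold changes of -0.49 for RISBZ1, -1.46 for RPBF, -0.86 for NAC20 and -0.94 for NAC26, where 59% of genes were called, 32.6% higher and 26.4% lower. Outside the storage lists and under quantile normalization, RPBF was called lower (-0.76 and -0.90) and the other 3 were not called. Those scalings called 72.9% of genes (61.8% higher, 11.1% lower) and 55.4% (28.1% higher, 27.3% lower). Minus the median of all genes, the deposited log2 fold changes were -0.19 for RISBZ1, -1.16 for RPBF, -0.55 for NAC20 and -0.63 for NAC26. Without the filter on low genes they were 0.53 for RISBZ1, -0.43 for RPBF, 0.18 for NAC20 and 0.097 for NAC26. Under quantile normalization RISBZ1 was at 0.048. With 0.1 RPKM added in place of 1, the 4 shifts were -0.59 for RISBZ1, -1.57 for RPBF, -0.95 for NAC20 and -1.03 for NAC26. Limma-voom on the derived reads gave -0.63, -1.60, -0.98 and -1.07 in the same order of genes. RPBF was below the median in each of these settings, and as deposited it lay above 7.83% of the genes tested.

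The complemented line against wild type addresses what differs with the transgene present. As deposited, 3 of the 4 were higher, near the background of 79.4% of all tested genes called, 72% higher and 7.37% lower. NAC20 rose 4.19-fold by its means (log2 fold change 2.06, SE 0.11, adjusted p = 4.3e-09). It was called higher under every scaling tried, with log2 fold changes of 1.10 to 2.06. As deposited it lay above 96.3% of genes. That position was 84.5% with 0.1 RPKM added in place of 1, and 82.8% with limma-voom on the derived reads. NAC26 (0.94, SE 0.10, adjusted p = 2.4e-06) and RISBZ1 (0.87, SE 0.086, adjusted p = 1.2e-06) were higher as deposited, outside the storage lists and under quantile normalization, but not called under median of ratios (-0.022 and -0.082). RPBF did not pass as deposited (0.17, 95% interval -0.035 to 0.37, adjusted p = 0.115). Its call was lower with median of ratios (-0.79) and with quantile normalization (-0.22). Median of ratios called 54.7% of all genes (29.8% higher, 25% lower), scaling outside the storage lists 68.8% (57.1% higher, 11.6% lower) and quantile normalization 51.8% (26.3% higher, 25.4% lower). Each library serves in several of the 3 comparisons, which are therefore not independent of one another.

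**Figure D3:**
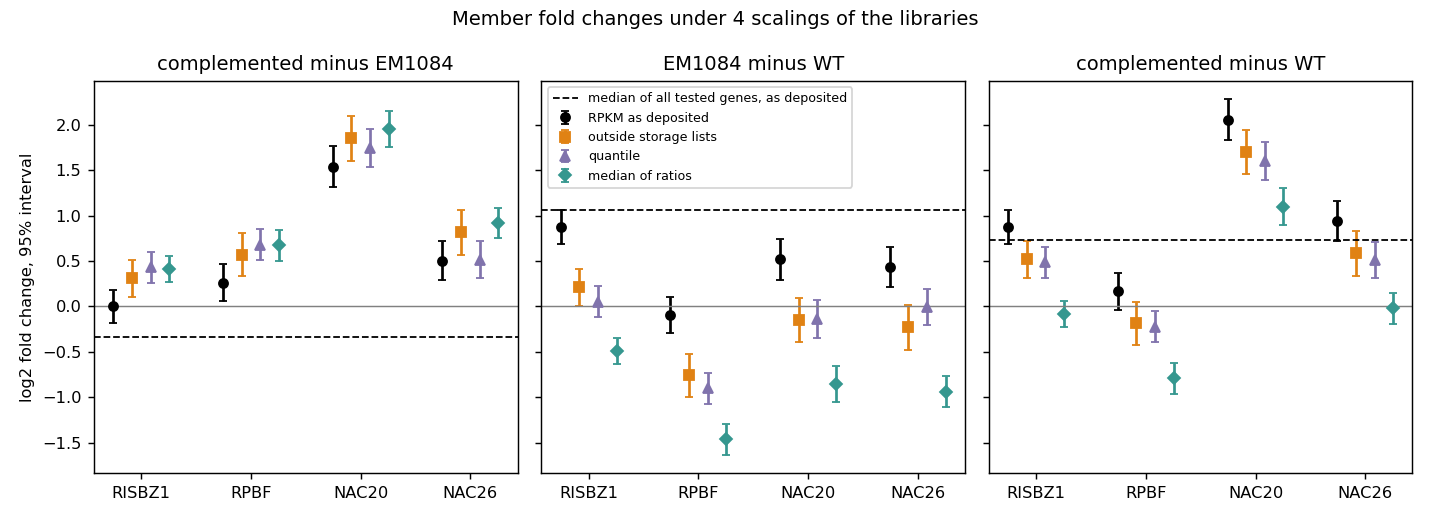
log2 fold change (vertical axis) with its 95% interval for RISBZ1, RPBF, NAC20 and NAC26 (horizontal axis) in the 3 comparisons (panels), on RPKM as deposited and under 3 other scalings (symbols); the dashed line is the median of all 15450 genes as deposited. NAC20 lies above 0 under all 4 scalings in both comparisons of the complemented line, while in EM1084 against wild type RISBZ1, NAC20 and NAC26 change sign between the deposited values and median of ratios.

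Of markers of other seed parts, the 6 embryo and aleurone genes summed to 1680 to 2120 RPKM in the complemented line, 1589 to 1887 RPKM in EM1084 and 1062 to 1146 RPKM in wild type. Of the 5 tested, 2 were higher and 0 lower in the complemented line against EM1084 (10.2% and 45.3% of all genes). In EM1084 against wild type 3 were higher and 2 lower (82.7% and 5.33% of all genes), and the same counts were found comparing complemented line and wild type (72% and 7.37% of all genes). The 5 green tissue genes summed to 4.04 to 6.60 RPKM in the complemented line, 3.88 to 5.43 RPKM in EM1084 and 2.28 to 2.95 RPKM in wild type. The 4 starchy endosperm genes (GluA1, GluA2, alpha-globulin and GBSSI) summed to 87566 to 92493 RPKM in the complemented line, 37907 to 39829 RPKM in EM1084 and 73112 to 81877 RPKM in wild type. Of these 4, 4 were higher in the complemented line against EM1084, 3 were lower and 0 higher in EM1084 against wild type, and 2 were higher and 0 lower in the complemented line against wild type. In that last comparison GluA1 (-0.67) and GluA2 (-0.87) were called lower under median of ratios. Both were called higher under quantile normalization (0.52 and 0.53). Outside the storage lists GluA1 was not called (-0.063) and GluA2 was called lower (-0.26). Wider storage lists differed from these 4 there, as deposited. Of 12 glutelin genes 2 were higher and 5 lower, and of 29 prolamin genes 7 were higher and 17 lower. Prolamins summed to 103626 to 128603 RPKM in the complemented line and 235118 to 239913 RPKM in wild type. No gene of the marker lists was at 0 throughout a genotype. The part of these differences in the activator levels was not tested.

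Genes listed as targets of RISBZ1 and RPBF moved in both directions. The target lists were put together from general knowledge of the literature and were not checked against a source. Of the 11 listed, all tested, 4 were higher and 5 lower in the complemented line against EM1084 (10.2% and 45.3% of all genes), with a median log2 fold change of 0.011 against -0.34 for all genes. LKR/SDH (LOC_Os02g54254), a lysine breakdown enzyme, rose to 200.4 ± 9.06 RPKM in the complemented line, against 88.3 ± 1.95 RPKM in EM1084 (adjusted p = 8.6e-08). BEI (LOC_Os06g51084), a starch branching enzyme, rose to 1774 ± 56.3 RPKM in the complemented line, against 873 ± 43.6 RPKM in EM1084 (adjusted p = 1.3e-07). GBSSI (LOC_Os06g04200), which makes amylose, stood at 1623 ± 33.6 RPKM in the complemented line and 1175 ± 103 RPKM in EM1084 (adjusted p = 0.00025). Among the 5 lower targets was the glutelin gene GluB1a, with 27665 ± 1334 RPKM in the complemented line and 32708 ± 1790 RPKM in EM1084 (limma adjusted p = 0.011). GluB1a was also lower under quantile normalization (-0.73), but was not called under median of ratios (0.17) or outside the storage lists (0.070). With median-of-ratios scaling 5 of the 11 were higher and 2 lower (18.1% and 18.9% of all genes).

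In EM1084 against wild type 6 of these 11 targets were higher, 1 was lower and 4 did not pass, where 82.7% of all genes were higher and 5.33% lower. Their median log2 fold change was 0.63 against 1.06 for all genes. With median-of-ratios scaling 2 were higher and 8 lower (32.6% and 26.4% of all genes). Scaling outside the storage lists gave 3 higher and 5 lower (61.8% and 11.1% of all genes). Quantile normalization gave 7 higher and 3 lower (28.1% and 27.3% of all genes). AlaAT1 (LOC_Os10g25130), an alanine aminotransferase, had 444 ± 21.1 RPKM in EM1084 and 101.3 ± 8.52 RPKM in wild type (adjusted p = 2.2e-10). PPDKB (LOC_Os05g33570), a pyruvate phosphate dikinase, had 885 ± 53.8 RPKM in EM1084 and 267 ± 8.40 RPKM in wild type (adjusted p = 5.3e-10). GluB1a (LOC_Os02g15169), the glutelin gene in which the GCN4 element was studied, had 32708 ± 1790 RPKM in EM1084 and 34456 ± 2640 RPKM in wild type (adjusted p = 0.33). GluB1a was called lower under median of ratios (-1.45) and outside the storage lists (-0.74), and higher under quantile normalization (0.58). GluB1b (LOC_Os02g15178), its neighbouring copy, was the 1 lower target, with 264 ± 150.2 RPKM in EM1084 and 1124 ± 160.1 RPKM in wild type (adjusted p = 0.0014), and the split of reads between the pair is uncertain. In the complemented line against wild type 9 were higher and 2 lower as deposited (72% and 7.37% of all genes). Median-of-ratios scaling gave 2 higher and 7 lower (29.8% and 25% of all genes). Outside the storage lists 6 of the targets were higher and 2 lower (57.1% and 11.6% of all genes). Under quantile normalization 7 were higher and 1 lower (26.3% and 25.4% of all genes).

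Of 7 genes listed as targets of NAC20 and NAC26, 6 were tested, and PUL was not analysed here. In the complemented line against EM1084 5 were higher and 1 lower (10.2% and 45.3% of all genes), with a median log2 fold change of 0.52 against -0.34 for all genes. Storage families as a whole had medians of 0.18 (glutelins), 0.71 (prolamins) and 0.89 (globulins and albumins) in that comparison. GluA1 (LOC_Os01g55690), a glutelin gene, had 42785 ± 2218 RPKM in the complemented line and 15413 ± 201 RPKM in EM1084 (adjusted p = 1.4e-09). GluB5 (LOC_Os02g16820), another glutelin gene whose reads may be shared with its close copy GluB4, had 20680 ± 1884 RPKM in the complemented line and 12290 ± 201 RPKM in EM1084 (adjusted p = 2.4e-06). SSI (LOC_Os06g06560), a starch synthase, was the 1 that fell, to 179.9 ± 25.9 RPKM in the complemented line, against 284 ± 11.8 RPKM in EM1084 (adjusted p = 8.8e-05). The same counts held under median of ratios (18.1% and 18.9% of all genes) and outside the storage lists (15.6% and 23.7%). Quantile normalization gave 2 higher and 2 lower (20.6% and 20.5% of all genes) and did not call GluB5. That method sets each value by the rank of the gene in its library. A change in level that leaves the rank as it was therefore cannot show there.

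In EM1084 against wild type 1 of these 6 was higher (SSI, 284 ± 11.8 RPKM in EM1084 and 96.4 ± 3.14 RPKM in wild type) and 5 were lower, where 82.7% of all genes were higher and 5.33% lower. Their median was -0.79 against 1.06 for all genes. Storage families as a whole also had medians below 0 as deposited, so this is not particular to the listed targets. Of 12 glutelin genes 8 were lower and 2 higher (median -0.69), and of 29 prolamin genes 19 were lower and 7 higher (-1.04). Of 9 globulin and albumin genes 5 were lower and 4 higher (-0.69). Among the 5 lower targets was the prolamin locus LOC_Os06g31070, with 2144 ± 108 RPKM in EM1084 and 4410 ± 153 RPKM in wild type (adjusted p = 1e-08). For the 6 targets quantile normalization gave 4 higher and 1 lower (28.1% and 27.3% of all genes), and did not call that prolamin locus. The storage families then had medians of 0.50 (glutelins), -0.72 (prolamins) and 0.48 (globulins and albumins). The fold of each of the 5 lower targets lay below those of NAC20 and NAC26 in the same comparison, which also held under median of ratios and outside the storage lists. Under quantile normalization it did not hold, and 4 of the 6 targets had a fold above that of NAC20 and 4 above that of NAC26. In the complemented line against wild type 2 were higher and 2 lower as deposited (72% and 7.37% of all genes). Counts were 0 higher and 5 lower under median of ratios (29.8% and 25% of all genes), and 5 higher and 0 lower under quantile normalization (26.3% and 25.4% of all genes). None of the 6 had a log2 fold change as high as the 2.06 of NAC20.

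**Figure D4:**
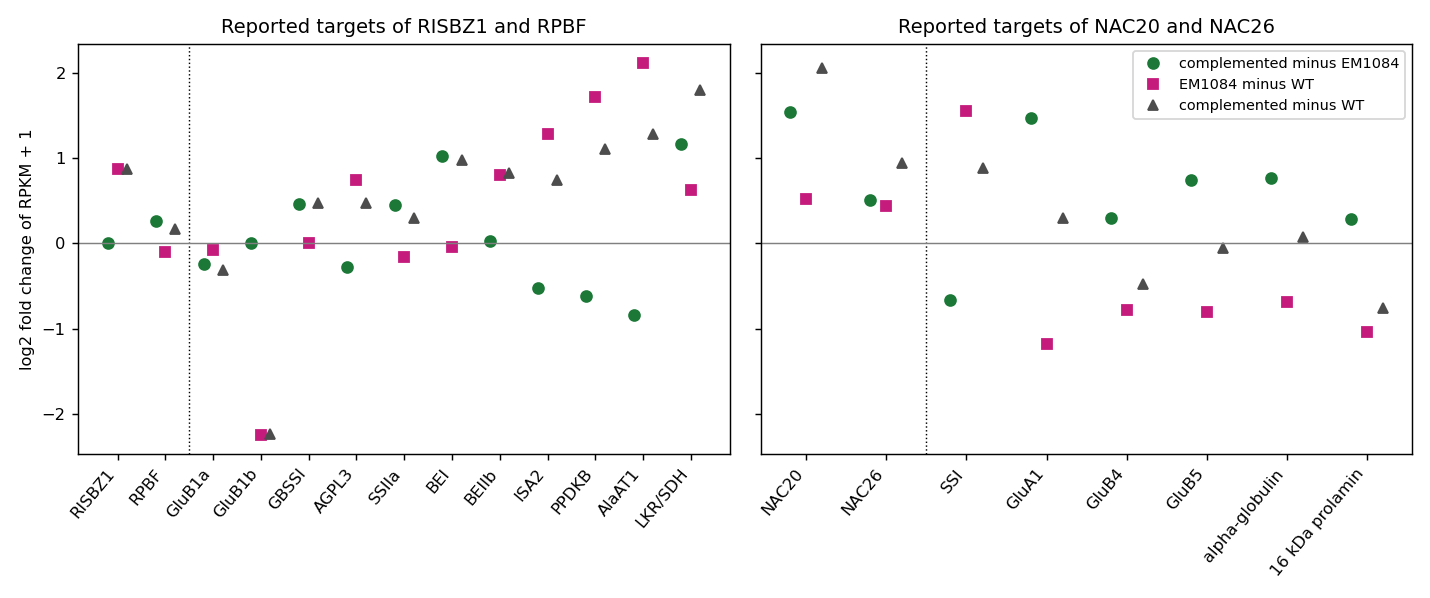
log2 fold change of RPKM + 1 as deposited (vertical axis) of RISBZ1, RPBF and the 11 genes listed as their targets (left), and of NAC20, NAC26 and 6 of theirs (right), for the 3 comparisons (symbols). Among NAC targets only SSI lies above 0 in EM1084 against wild type, while NAC20 (0.52) and NAC26 (0.43) both do.

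Of 17 other regulators of endosperm development and filling, 16 were in the table and 14 were tested. In the complemented line against EM1084 5 rose and 5 fell, where 10.2% of all genes were higher and 45.3% lower (median log2 fold change -0.16, against -0.34 for all genes). Median of ratios gave 5 higher and 1 lower (18.1% and 18.9% of all genes). NAC23 (LOC_Os02g12310), a seed-expressed NAC gene and the most abundant of these regulators, had 1879 ± 71.7 RPKM in the complemented line, 726.5 ± 49.1 RPKM in EM1084 and 1098 ± 40.8 RPKM in wild type. It rose in the complemented line against EM1084 (log2 fold change 1.37, adjusted p = 9.1e-09). The next most abundant, LOC_Os11g31330, had 1168 ± 154 RPKM in the complemented line, 391 ± 31.2 RPKM in EM1084 and 293 ± 24.6 RPKM in wild type. It rose by 1.57 against EM1084 (adjusted p = 6.8e-08) and by 1.99 against wild type (adjusted p = 4.9e-09), and was called higher under the other 3 scalings in both. It was the 1 regulator of the 14 with a log2 fold change above that of NAC20 in the complemented line against EM1084.

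In EM1084 against wild type 9 regulators were higher and 3 lower as deposited (82.7% and 5.33% of all genes), with a median of 0.60 against 1.06 for all genes. With median-of-ratios scaling 4 were higher and 9 lower (32.6% and 26.4% of all genes). NF-YB1 (LOC_Os02g49410), a CCAAT-box subunit of the endosperm, had 58.2 ± 1.61 RPKM in EM1084 and 5.37 ± 1.61 RPKM in wild type (adjusted p = 6.1e-10). NAC129 (LOC_Os11g31380), a NAC gene of grain filling, had 11.4 ± 2.34 RPKM in EM1084 and 53.6 ± 5.28 RPKM in wild type (adjusted p = 2.5e-08). In the complemented line against wild type 9 were higher and 3 lower as deposited (72% and 7.37% of all genes), and 6 were higher and 6 lower under median of ratios (29.8% and 25% of all genes). NF-YC12 (LOC_Os10g11580), a partner of NF-YB1, had 798 ± 47.3 RPKM in the complemented line and 227 ± 11.5 RPKM in wild type (adjusted p = 6e-10).

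The listed genes with the most similar patterns over the 9 libraries were found by the root mean square difference of log2(RPKM + 1), each gene centred on its own mean, among 7471 genes with a mean of at least 5 RPKM. For NAC20 the nearest of all 7471 genes was LOC_Os11g31330, at a distance of 0.098, and the other listed gene was LKR/SDH at 0.21, with rank 11. BEIIb (LOC_Os02g32660), a starch branching enzyme gene, was second nearest of all genes to RISBZ1, at 0.052. It had 1492 ± 121 RPKM in the complemented line, 1465 ± 40.1 RPKM in EM1084 and 841 ± 46.3 RPKM in wild type. LOC_Os07g11310, of the seed albumin list, was next among listed genes at 0.12, and ranked 95 of all genes. SSIIa (LOC_Os06g12450), a starch synthase gene, and GluB6 (LOC_Os02g15070), a glutelin gene, were the nearest listed genes to RPBF at 0.098 (rank 4) and 0.11 (rank 8). PHO1 (LOC_Os03g55090), a plastidial starch phosphorylase gene, was the nearest listed gene to NAC26 at 0.12, with rank 15 of all genes, followed by BEIIb at 0.23, with rank 265. Among the members themselves, NAC26 and RISBZ1 were the closest pair at 0.24, NAC20 and NAC26 stood at 0.51, and NAC20 and RPBF were the farthest pair at 0.79. All genes share the 9 libraries and their scaling, so these distances are descriptions over 3 genotypes.

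**Figure D5:**
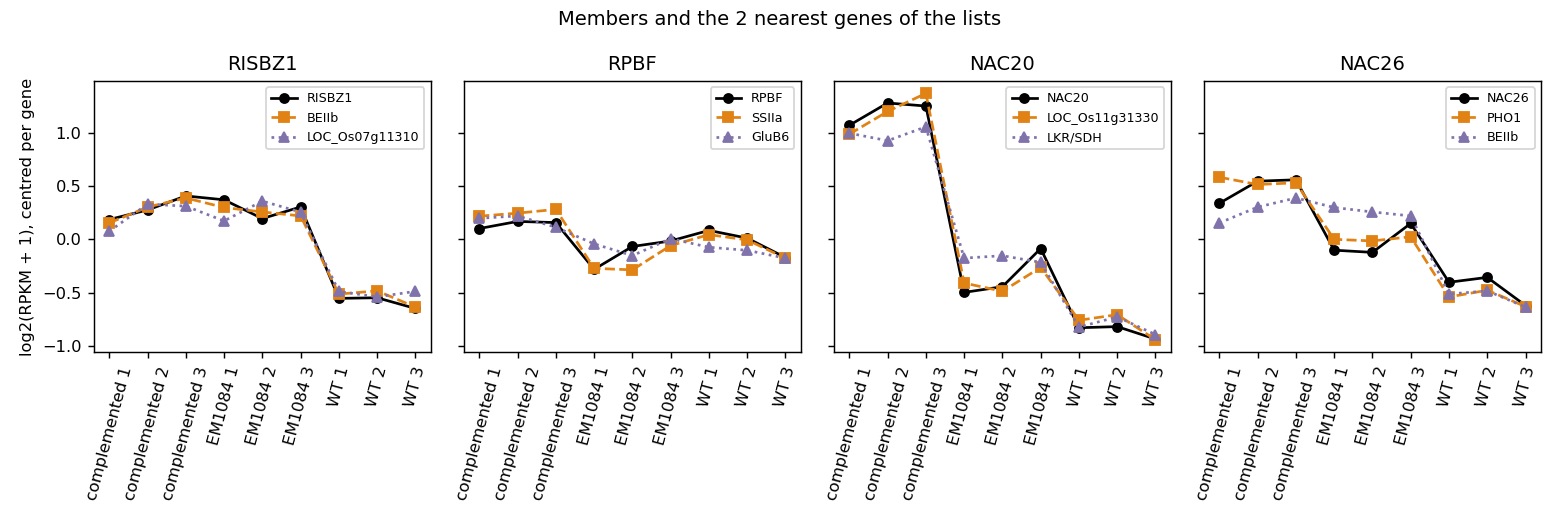
log2(RPKM + 1) centred on the mean of each gene (vertical axis) over the 9 libraries (horizontal axis) for each member (black) and the 2 nearest genes of the lists; lines join the values of 1 gene. NAC20 and LOC_Os11g31330 both stand high in the complemented line, apart from EM1084 and wild type, and RISBZ1 and BEIIb both stand low in wild type only.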

How the data were processed

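RNA from seeds of 3 genotypes was profiled in 9 libraries. The deposited table gives RPKM (reads per kilobase of transcript, scaled to mapped reads), computed by the authors per library, per the file headers. Per the labels' protocols, the kit was ScriptSeq v2 and the input total RNA. The sources used here do not give the aligner, counter, use of strand, build or annotation. RPKM is relative to the mapped total, so a class that takes many reads lowers all others. Mapped totals and whole reads were derived from the steps of the RPKM values, and all 281367 values came out whole within 0.001 reads. NAC20 and NAC26 are homologs, and reads common to both could have been split between them.

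Genes with at least 1 RPKM in at least 3 libraries (15450) were fitted as log2(RPKM + 1) with limma 3.58.1 in R 4.3.3 (trend, robust), all 9 libraries together, two-sided, called at an adjusted p under 0.05. Fold changes are on that scale. Ratios were tested by exact permutation in Python 3.11.15. The procedures were tested on simulated data. The simulation for limma held no shift common to most genes, so it does not check the choice of scaling. The members and lists were chosen with earlier results of these data known. Named genes were, per list, the 2 called with the smallest adjusted p in each comparison and the 2 of highest mean, with the 2 listed genes nearest each member; GluB1b was named after its values were seen. The design text calls the repeats biological without naming separate plants, so p-values measure the spread between these samples. Alternatives were pseudocount, filter, 3 scalings, limma-voom on derived reads, pairs of genotypes alone, a replicate block and leaving out each library.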

Additional observations from a re-analysis of the deposited data

How the results depend on the processing

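NAC20 in both comparisons of the complemented line and NAC26 against EM1084 kept direction and call under every alternative run. Median-of-ratios scaling turned the log2 fold change for EM1084 against wild type to -0.49 for RISBZ1, -0.86 for NAC20 and -0.94 for NAC26, with -1.46 for RPBF, and turned that of the complemented line against wild type to -0.082 for RISBZ1, -0.79 for RPBF and -0.022 for NAC26. Scaling outside the storage lists gave 0.21, -0.15, -0.23 and -0.76 for RISBZ1, NAC20, NAC26 and RPBF in EM1084 against wild type and -0.19 for RPBF in the complemented line against wild type. Quantile normalization gave 0.052, -0.14, -0.0031 and -0.90 for RISBZ1, NAC20, NAC26 and RPBF in EM1084 against wild type, and -0.22 for RPBF in the complemented line against wild type. It called 8564 genes in EM1084 against wild type and 8003 in the complemented line against wild type, against 13604 and 12263 as deposited. RISBZ1 in the complemented line against EM1084 became 0.41, 0.31 and 0.43 under median-of-ratios, outside-storage and quantile scaling. The scalings differ by construction in what they hold constant, and which is right was not tested.

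For that RISBZ1 difference, leaving out 1 library each gave -0.059 to 0.051, and for RPBF 0.18 to 0.32 (limma adjusted p = 0.018 to 0.145). Without the filter RPBF stayed at 0.26 (adjusted p = 0.056). Over the alternatives that left out a library, the other member calls were as reported, and the joint ratio tests had adjusted exact permutation p of 0.00536 to 0.0464. Replicate numbers do not pair the libraries: the correlation of same-numbered deviations ran from -0.026 to 0.060 over 9 pairs. The replicate block called 8395, 13595 and 12166 genes for the complemented line against EM1084, EM1084 against wild type and the complemented line against wild type, and changed no call of a single member. Of the ratios it ended the call of NAC26 over RISBZ1 (adjusted exact permutation p = 0.0556), where the smallest p a block allows is 0.0278 before adjustment.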
